A study of Mus musculus with 35 samples.

Results

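The sirtuins are the NAD+-dependent class of deacetylases, and the 7 mouse genes *Sirt1* to *Sirt7* were taken by their symbols from the 39017 genes of a striatal count table. Each was measured in the RNA of 35 mice, with 1 library per mouse. The mice carried either 2 normal huntingtin alleles (*Htt*+/+) or 1 *Htt*Q111 knock-in allele (*Htt*Q111/+), in which the CAG repeat of the mouse gene is expanded to the range that causes Huntington's disease. *Hdac2* WT mice carried no Cre, and by the study's definition such mice had 1, 2 or no floxed *Hdac2* alleles. *Hdac2* KO mice carried 2 floxed *Hdac2* alleles and a Cre transgene under the *Ppp1r1b* (DARPP-32) promoter. That promoter is active in medium-spiny neurons, so other striatal cells kept *Hdac2*. There were 8 *Htt*+/+ *Hdac2* WT, 7 *Htt*Q111/+ *Hdac2* WT, 9 *Htt*+/+ *Hdac2* KO and 11 *Htt*Q111/+ *Hdac2* KO mice, of both sexes and aged 21.71 to 23.0 weeks. The CAG repeat was 110 to 140 units long in *Htt*Q111/+ *Hdac2* WT mice and 110 to 144 in *Htt*Q111/+ *Hdac2* KO mice. Since no *Hdac2* WT mouse carried Cre, an effect of Cre itself and of *Hdac2* loss cannot be told apart.

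Sirtuins remove acetyl or longer acyl groups from lysines and consume NAD+ in each round, which ties them to the energy state of the cell. They share no catalytic mechanism with HDAC2, a zinc-dependent class I deacetylase. SIRT1, SIRT6 and SIRT7 act mainly in the nucleus, SIRT2 mainly in the cytoplasm, and SIRT3, SIRT4 and SIRT5 in mitochondria. In brain, SIRT2 is known as an abundant protein of oligodendrocytes, the cells that make myelin.

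The libraries held 50970712 to 77867348 counts on genes (median 57322618), and levels are given below as CPM, counts scaled to a common library size with TMM factors. *Hdac2* itself ranged from 97.6 to 106.5 CPM in *Htt*+/+ *Hdac2* WT and from 89.4 to 99.2 CPM in *Htt*+/+ *Hdac2* KO striata, and from 95.6 to 111.4 and 89.8 to 101.2 CPM in the corresponding *Htt*Q111/+ groups. Its fitted log2 fold change was −0.09 in *Htt*+/+ (SE 0.032, adjusted p = 0.0552) and −0.12 in *Htt*Q111/+ mice (SE 0.028, adjusted p = 0.00198). The counts cover whole gene intervals, so the floxed exons were not measured apart from the rest of the gene. From the reads of these mice, the study reported a strong loss of the floxed exons in *Hdac2* KO striata. It also reported loss of HDAC2 protein on western blots. The 10 medium-spiny neuron markers summed to a median of 8705 CPM in *Htt*+/+ and 6276 in *Htt*Q111/+ libraries of the *Hdac2* WT groups, and of 8498 and 7411 CPM in those of the *Hdac2* KO groups. In RNA of whole striatum, fewer cells of a type and less RNA per cell cannot be told apart. By counts of stained medium-spiny neurons, the study found no significant loss of these cells with *Hdac2* KO. It did not quantify neuron loss from the *Htt*Q111 allele, which it described as very slight or absent in this model. RNA extraction dates nearly followed the *Hdac2* genotype: on 3 days only *Hdac2* KO striata were extracted, on 1 day only *Hdac2* WT striata, and on 2 days 1 *Hdac2* KO beside 5 *Hdac2* WT striata.

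The start regions of the 3 sirtuin genes whose level passed a test in some comparison are shown first. They are RefSeq windows on GRCm38.p6, read 5′ to 3′, from 250 bases before to 50 bases after a gene's start. Capitals mark every match, on either strand, to the CCAAT box by those letters, the GC box (spelled GGGCGG), the E-box (spelled CACGTG), the core that ETS factors bind (spelled CCGGAAG), the core of NRF1 sites (spelled GCATGC) and the TATA box (spelled TATAAA). *Sirt3* has 2 start windows. *Psmd13*, a proteasome subunit gene on the opposite strand, begins inside *Sirt3* and overlaps it by 342 bases.
Sirt2, chr7:28766502-28766801, plus strand: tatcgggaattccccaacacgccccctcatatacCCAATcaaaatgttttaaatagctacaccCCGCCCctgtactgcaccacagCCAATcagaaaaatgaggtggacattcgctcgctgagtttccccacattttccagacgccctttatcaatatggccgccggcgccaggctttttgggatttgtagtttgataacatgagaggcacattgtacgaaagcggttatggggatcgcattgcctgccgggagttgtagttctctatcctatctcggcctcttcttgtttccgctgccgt
Sirt3 upstream start, chr7:140882260-140882559, minus strand: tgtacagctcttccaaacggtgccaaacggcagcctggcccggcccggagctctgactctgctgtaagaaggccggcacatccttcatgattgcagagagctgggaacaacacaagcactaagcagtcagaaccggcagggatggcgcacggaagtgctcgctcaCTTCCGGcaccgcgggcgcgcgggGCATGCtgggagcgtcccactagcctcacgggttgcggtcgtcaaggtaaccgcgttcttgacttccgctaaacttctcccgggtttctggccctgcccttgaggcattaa
Sirt3 downstream start, chr7:140881820-140882119, minus strand: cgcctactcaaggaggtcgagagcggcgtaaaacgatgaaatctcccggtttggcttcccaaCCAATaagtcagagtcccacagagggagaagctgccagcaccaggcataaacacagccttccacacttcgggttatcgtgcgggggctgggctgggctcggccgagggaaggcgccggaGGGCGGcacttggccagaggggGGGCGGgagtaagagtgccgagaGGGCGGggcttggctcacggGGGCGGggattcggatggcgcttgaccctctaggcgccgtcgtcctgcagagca
Sirt5, chr13:43365285-43365584, plus strand: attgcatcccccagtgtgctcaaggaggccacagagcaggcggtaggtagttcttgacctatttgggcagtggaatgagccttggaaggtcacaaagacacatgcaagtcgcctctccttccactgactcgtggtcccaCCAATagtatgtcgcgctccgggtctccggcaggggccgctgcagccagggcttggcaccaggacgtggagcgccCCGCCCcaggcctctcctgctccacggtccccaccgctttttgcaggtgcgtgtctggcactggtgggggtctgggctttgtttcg

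The 3 genes did not share an arrangement of these motifs. The downstream *Sirt3* window held 4 GC boxes and 1 CCAAT box, and the upstream window held 1 ETS core and 1 NRF1 core. The *Sirt5* window held 1 CCAAT box and 1 GC box, and that of *Sirt2* held 2 CCAAT boxes and 1 GC box. Of all 32851 windows of this length, 37.4% held CCAAT, 35.7% GGGCGG, 8.86% CCGGAAG and 7.93% GCATGC. No window of these 3 genes matched CACGTG or TATAAA, which 7.15% and 13.6% of all windows held. In the shown windows no base lay in 2 motifs. The GC content was 50% for *Sirt2*, 61% and 64.7% for the *Sirt3* windows and 62% for *Sirt5*, against a median of 52.7% over all windows. The other members' windows, not shown, differed widely: that of *Sirt1* had 79% GC, 7 GC boxes and 2 E-boxes, and that of *Sirt4* had 52% GC and none of the 6 motifs. These letters were not tested against the expression values.

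On the build of the count table (GRCm38), *Sirt1* was counted on chromosome 10 from 63319005 to 63381704, *Sirt2* on chromosome 7 from 28766735 to 28788660 and *Sirt3* on chromosome 7 from 140863670 to 140882309. *Sirt4* lay on chromosome 5 from 115478010 to 115484366, *Sirt5* on chromosome 13 from 43370710 to 43395202, *Sirt6* on chromosome 10 from 81621785 to 81627566 and *Sirt7* on chromosome 11 from 120618372 to 120624984. Each is a protein-coding gene, counted over exons and introns together. The *Sirt5* interval begins downstream of the start region shown above and holds 93.4% of the exon bases that GENCODE M21 gives for the gene. For the other members 85.0% (*Sirt4*) to 100% (*Sirt1*) of the exon bases lay in the interval.

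Per exon length, *Sirt2* was the highest sirtuin of the striatum. Its median over the 35 libraries was 30.8 CPM per kb of exon inside the counted interval, 4.91 times that of *Sirt3*, the next in order, and it was higher than *Sirt3* in 35 of 35 libraries. *Sirt3* (6.28), *Sirt7* (5.78), *Sirt4* (5.18) and *Sirt1* (4.62 CPM per kb) followed close to each other. *Sirt3* exceeded *Sirt7* in 27 of 35 libraries, *Sirt7* exceeded *Sirt4* in 28 and *Sirt4* exceeded *Sirt1* in 26, so the ranges of these neighbours overlapped. *Sirt6* had a median of 3.32 CPM per kb and was below *Sirt1* in 34 of 35 libraries. *Sirt5* was the lowest, with 1.47 CPM per kb, below *Sirt6* in 35 of 35 libraries. Since introns were counted too, this order also carries intron reads. Per length of the whole interval, *Sirt2* (7.08 CPM per kb) still led and *Sirt5* (0.341 CPM per kb) was still lowest, but *Sirt1*, which has the longest interval (62.7 kb), came down to 0.393 CPM per kb.

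**Figure D1:**
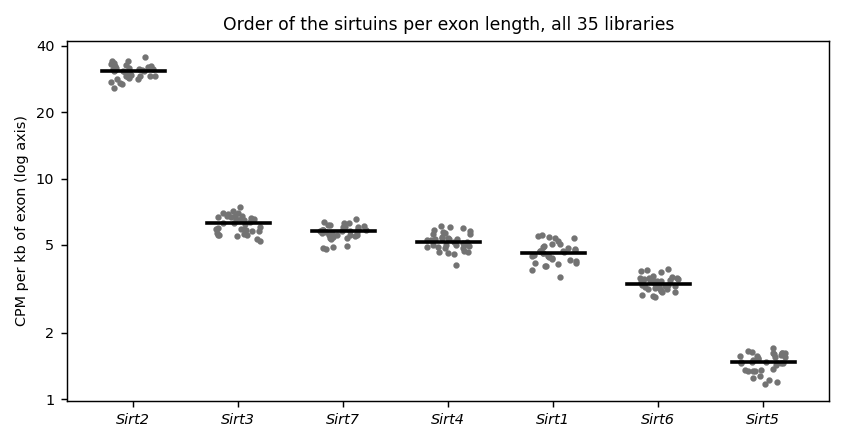
Level of each sirtuin in CPM per kb of exon (log axis), with 1 point per library for 35 libraries and a bar at the median. *Sirt2* lies apart at 30.8, *Sirt3*, *Sirt7*, *Sirt4* and *Sirt1* overlap between 3.58 and 7.42, and *Sirt5* is lowest at 1.47.

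The levels varied little from mouse to mouse. Over the 35 libraries, the highest level of a member was 1.33 (*Sirt6*) to 1.55 times (*Sirt1*) its lowest, and the coefficient of variation was 7.29% (*Sirt2*) to 10.5% (*Sirt1*). Raw counts ranged from 324 for *Sirt5* to 11492 for *Sirt2*, so each member was tested in each comparison.

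**Figure D2:**
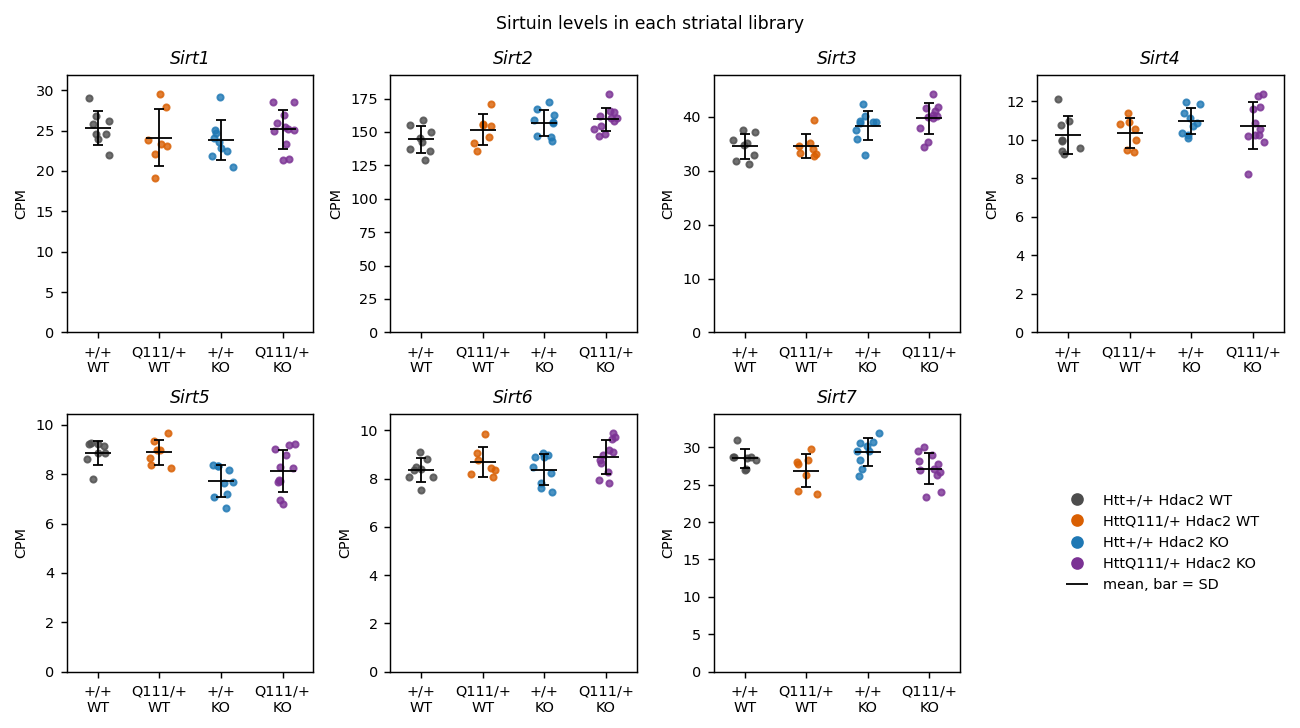
Level in CPM (vertical axes start at 0) of each sirtuin in each library of the 4 genotype groups (8, 7, 9 and 11 libraries), with the mean and SD. *Sirt3* is higher and *Sirt5* lower in most *Hdac2* KO libraries, with overlapping ranges, and the other 5 members overlap broadly.

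The *Hdac2* contrasts asked which genes changed when medium-spiny neurons lost HDAC2. Without the *Htt*Q111 allele, *Sirt5* fell and no other sirtuin passed the test. With the allele, *Sirt5* fell and *Sirt3* rose. Thus 1 of 7 members was called in *Htt*+/+ mice (edgeR's quasi-likelihood test, adjusted p under 0.05), where 17.8% of the 17126 genes tested were called, and 2 of 7 in *Htt*Q111/+ mice, where 16.5% of 17169 were. With 7 members, a count of 1 or 2 is near these shares, so the sirtuins did not stand apart as a family. In absolute size, the members' median log2 fold change was 0.09 in *Htt*+/+ and 0.07 in *Htt*Q111/+ mice, against 0.10 and 0.08 over all genes tested.

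**Figure D3:**
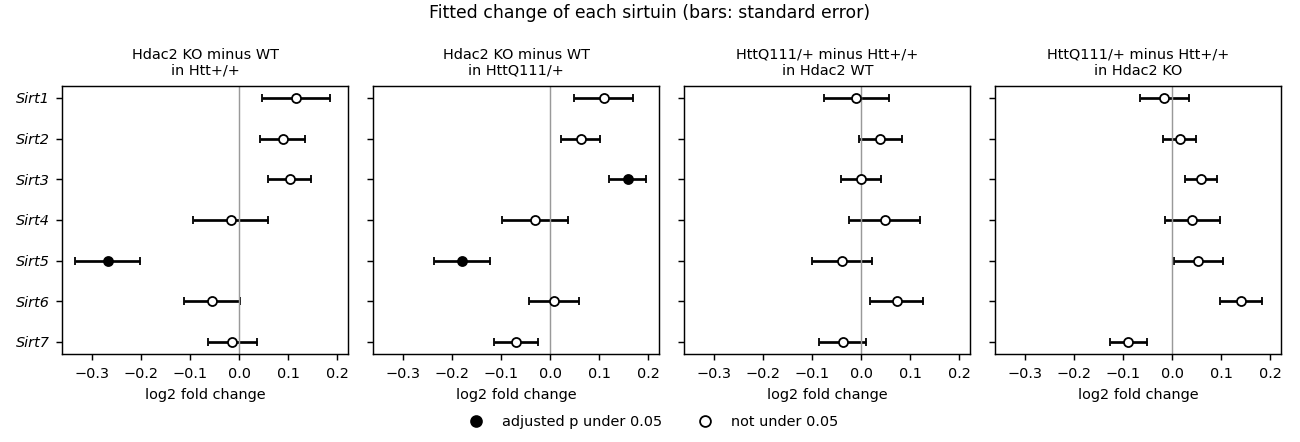
Fitted log2 fold change of each sirtuin (horizontal axis, bars give the standard error) for *Hdac2* KO minus WT in *Htt*+/+ and *Htt*Q111/+ mice and for *Htt*Q111/+ minus *Htt*+/+ in *Hdac2* WT and KO mice. Filled points mark adjusted p under 0.05: *Sirt5* (−0.27 and −0.18) and *Sirt3* (0.16) in the *Hdac2* contrasts, and none in the *Htt* contrasts.

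*Sirt5* encodes a mitochondrial enzyme that removes succinyl, malonyl and glutaryl groups from lysines. It ranged from 7.79 to 9.27 CPM (median 9.001) in *Htt*+/+ *Hdac2* WT and from 6.64 to 8.36 (median 7.68) in *Htt*+/+ *Hdac2* KO striata. All 9 *Htt*+/+ *Hdac2* KO libraries lay below the median of their controls and 5 of 9 below the lowest control, so the ranges overlapped but only in part. In *Htt*Q111/+ mice it ranged from 8.26 to 9.67 CPM (median 8.96) without and from 6.79 to 9.21 (median 8.26) with the knockout, and 6 of 11 *Hdac2* KO libraries lay below the lowest control. The group means gave ratios of 0.870 and 0.916. The fitted log2 fold change was −0.27 in *Htt*+/+ (SE 0.066, adjusted p = 0.00382) and −0.18 in *Htt*Q111/+ mice (SE 0.057, adjusted p = 0.0285), and −0.22 averaged over both (SE 0.048, adjusted p = 0.000811). In the average effect of *Hdac2* KO 2 of 7 members were called, *Sirt5* and *Sirt3*, beside 25.0% of 17346 genes.

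The *Sirt5* call was made in 14 of 15 alternative fits in *Htt*+/+ mice and in 7 of 15 in *Htt*Q111/+ mice, with the sign kept in all 15 in both. All 7 of those fits held estimated nuisance terms from all 35 libraries. Each fit that dropped or replaced these terms, or used only the libraries compared, lost the *Htt*Q111/+ call (adjusted p = 0.0567 to 0.505). It was lost with the terms kept but no filter on low counts too (adjusted p = 0.0566). In *Htt*Q111/+ mice the call was also lost when any of 8 single libraries was left out, while the log2 fold change was −0.18 to −0.13. The adjusted p was then 0.202, 0.0619 or 0.222 without *Htt*Q111/+ *Hdac2* WT replicate 1, 5 or 6, and 0.114, 0.096 or 0.05 without *Htt*Q111/+ *Hdac2* KO replicate 1, 4 or 5. It was 0.0524 without *Htt*+/+ *Hdac2* WT replicate 7 and 0.0608 without *Htt*+/+ *Hdac2* KO replicate 1, which enter the shared fit but not the contrast. In *Htt*+/+ mice it passed with each of the 35 libraries left out. When the estimated nuisance terms (surrogate variables) were replaced by extraction date, the *Sirt5* log2 fold change was −0.45 in *Htt*+/+ and −0.36 in *Htt*Q111/+ mice (adjusted p = 0.0567 in the second). That fit set *Hdac2* KO against WT only through the single *Hdac2* KO libraries of 25 and 27 May. These had the highest (77867348) and the lowest (50970712) total counts of all libraries. On both days with *Hdac2* KO and WT striata together, the single *Hdac2* KO library had less *Sirt5* than all 5 *Hdac2* WT libraries. The values were 6.79 CPM against 7.79 to 9.21 on 25 May, and 6.64 against 8.26 to 9.36 on 27 May. Such a rank was not particular to *Sirt5*: the 25 May library was also below all 5 for *Sirt4* and *Sirt6*. The 27 May library was below all 5 for *Sirt1* and above all 5 for *Sirt2*, *Sirt3*, *Sirt4* and *Sirt7*.

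*Sirt3* encodes the main protein deacetylase of the mitochondrial matrix. It ranged from 31.2 to 37.5 CPM (median 35.0) in *Htt*+/+ *Hdac2* WT and from 33.0 to 42.4 (median 39.0) in *Htt*+/+ *Hdac2* KO striata. In *Htt*Q111/+ mice it ranged from 32.7 to 39.4 CPM (median 34.0) without and from 34.4 to 44.3 (median 40.2) with the knockout. In each background most *Hdac2* KO libraries were above the highest control, 7 of 9 in *Htt*+/+ and 8 of 11 in *Htt*Q111/+ mice. The fitted log2 fold change was 0.16 in *Htt*Q111/+ mice (SE 0.038, adjusted p = 0.0036) and 0.10 in *Htt*+/+ mice (SE 0.043, adjusted p = 0.102), and 0.13 averaged over both (SE 0.032, adjusted p = 0.00218). The difference between the backgrounds, 0.06 (SE 0.051), did not pass the test of the interaction (adjusted p = 0.931).

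Extraction date moved with the *Sirt3* result. With date in the model the log2 fold change was 0.05 in *Htt*Q111/+ mice (adjusted p = 0.832) and 0.0057 in *Htt*+/+ mice (adjusted p = 0.984). That fit set *Hdac2* KO against WT only through the single *Hdac2* KO libraries of 25 and 27 May. On 25 May the *Hdac2* KO library (34.4 CPM) lay inside the *Hdac2* WT range of 31.2 to 39.4 CPM. On that day 3 of 5 *Hdac2* WT libraries were above it. On 27 May the *Hdac2* KO library (37.6 CPM) was just above the 5 *Hdac2* WT libraries (33.0 to 37.5 CPM). Across the days of only 1 *Hdac2* genotype, the 18 *Hdac2* KO libraries had a median of 39.9 CPM and the 5 *Hdac2* WT libraries 33.2 CPM. For these libraries the date and the knockout cannot be told apart. In the 14 other alternative fits the *Htt*Q111/+ call held, and in 4 of the 15 *Sirt3* was called in *Htt*+/+ mice as well (adjusted p = 0.00749 to 0.028).

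**Figure D4:**
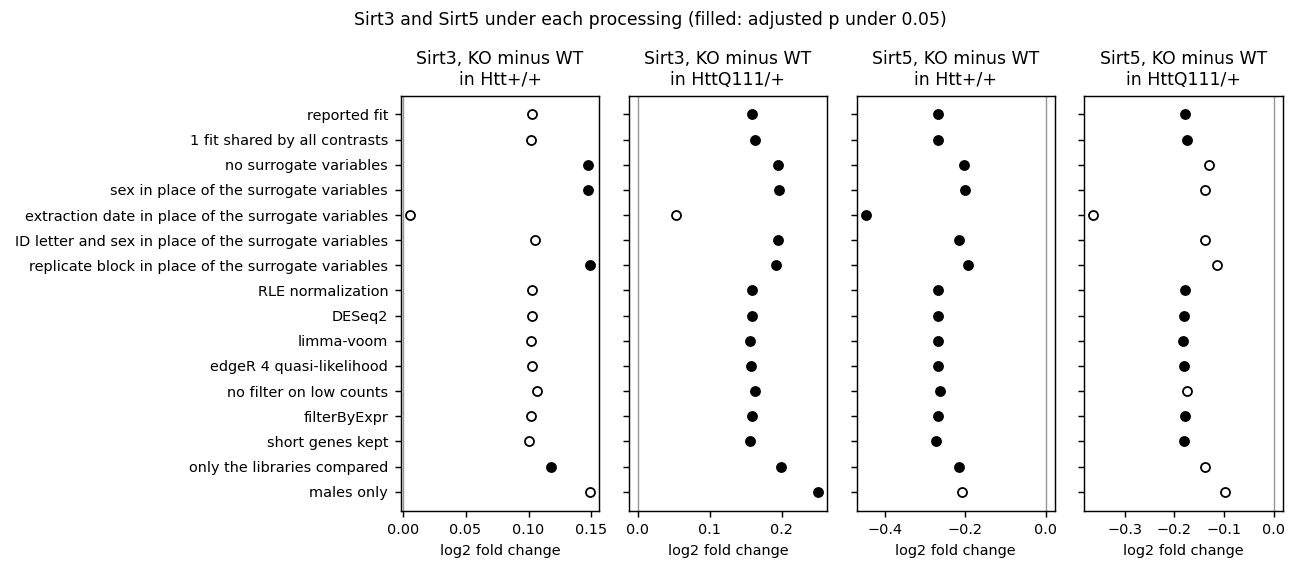
Log2 fold change (horizontal axis) of *Sirt3* and *Sirt5* for *Hdac2* KO minus WT in each *Htt* background, with 1 row per processing. Filled points mark adjusted p under 0.05. With extraction date in the model *Sirt3* comes close to 0 (0.0057 and 0.05) and *Sirt5* moves away from it (−0.45 and −0.36). That row sets *Hdac2* KO against WT only through the single *Hdac2* KO libraries of 25 and 27 May.

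*Psmd13*, which overlaps the start of *Sirt3*, had log2 fold changes of −0.00092 (adjusted p = 0.991) and 0.06 (adjusted p = 0.199) in the same contrasts. Whether strand was used in counting is not given in the sources used here, so reads in the shared 342 bases cannot be assigned to either gene. *Sirt2* overlaps *Nfkbib*, which encodes an inhibitor of NF-kappa-B, by 778 bases, and *Nfkbib* was not called in contrasts 1 to 4 (adjusted p = 0.526 to 0.944). *Sirt1* and *Sirt7* overlap a predicted gene, *Gm16145*, and a microRNA gene, mir-6936, each with a median of 0 counts. Of 12 tested genes that overlap a member or lie within 5 kb of it, 2 were called in contrast 1 and 1 in contrast 2, beside 17.8% and 16.5% of all genes. *Mafg*, a small MAF transcription factor gene beside *Sirt7* whose longer entry is given here, had −0.17 (adjusted p = 0.0102), and *BC025920* beside *Sirt6* had −0.22 (adjusted p = 0.0322), both in *Htt*+/+ mice. *Herc4*, a ubiquitin ligase gene beside *Sirt1*, had 0.12 in *Htt*Q111/+ mice (adjusted p = 0.0441). None of these 3 lies beside *Sirt3* or *Sirt5*.

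The other 5 sirtuins did not pass the test in either *Hdac2* contrast. *Sirt1*, the nuclear deacetylase of transcription factors and histones, had fitted log2 fold changes of 0.12 (SE 0.069, adjusted p = 0.278) and 0.11 (SE 0.060, adjusted p = 0.239). In *Htt*+/+ mice the ratio of its group means was 0.939, on the other side of 1, and the sign of the fitted value turned in 7 of 15 alternative fits. *Sirt2*, a cytoplasmic tubulin deacetylase, had 0.09 (SE 0.046, adjusted p = 0.199) and 0.06 (SE 0.040, adjusted p = 0.33). *Sirt4*, a mitochondrial ADP-ribosyltransferase and lipoamidase, had −0.02 and −0.03. *Sirt6*, a chromatin-bound deacetylase of histone H3, had −0.06 and 0.0087, and *Sirt7*, a deacetylase of the nucleolus, had −0.01 and −0.07. For *Sirt4*, *Sirt6* and *Sirt7* the standard errors of these fold changes were 0.045 to 0.076 and the adjusted p 0.333 to 0.941.

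The *Htt* contrasts asked what the *Htt*Q111 allele did with and without HDAC2 in medium-spiny neurons. No sirtuin passed in *Hdac2* WT mice, where 0.403% of 17133 genes were called and 0 of 7 members had a nominal p under 0.05. The members' log2 fold changes lay between −0.04 and 0.07, with adjusted p of 0.694 or more. In *Hdac2* KO mice 0 of 7 were called, beside 0.00584% of 17110 genes. There 2 of 7 members had a nominal p under 0.05, as did 7.52% of all genes tested. *Sirt6* had 8.90 ± 0.700 CPM (SD, n = 11) in *Htt*Q111/+ and 8.37 ± 0.629 CPM (SD, n = 9) in *Htt*+/+ striata, a log2 fold change of 0.14 (SE 0.043, adjusted p = 0.285). *Sirt7* had 27.1 ± 2.10 and 29.3 ± 1.85 CPM in the same groups, a log2 fold change of −0.09 (SE 0.038, adjusted p = 0.576). Averaged over both *Hdac2* genotypes, *Sirt6* had 0.10 (adjusted p = 0.176) and *Sirt7* −0.06 (adjusted p = 0.404), and 0 of 7 members were called, beside 1.27% of 17346 genes. The interaction of both genotypes was called for 0 of 7 members and for 0.00577% of 17346 genes, and 0 of 7 members had a nominal p under 0.05 in it.

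With both changes together, that is in *Htt*Q111/+ *Hdac2* KO mice set against *Htt*+/+ mice of the *Hdac2* WT group, *Sirt3* rose by 0.16 on the log2 scale (SE 0.041, adjusted p = 0.00494) and *Sirt5* fell by 0.22 (SE 0.062, adjusted p = 0.0098). These 2 of 7 members compare with 21.2% of 17088 genes called. This comparison shares libraries with the others. *Sirt3* was above the highest *Htt*+/+ *Hdac2* WT library in 9 of 11 libraries, and *Sirt5* below the lowest in 5 of 11. *Sirt2* had 0.11 (adjusted p = 0.0758) and lay above the highest control in 6 of 11 libraries, and 6 of 15 alternative fits called it. The *Sirt5* call was made in 10 of 15 alternative fits and its sign held in all 15. It was lost without surrogate variables (−0.13, adjusted p = 0.109), with sex (−0.13, 0.0987), with ID letter and sex (−0.13, 0.0847) or with the replicate block (−0.12, 0.161) in their place, and in males only (−0.08, 0.483). Extraction date in the model left *Sirt3* at 0.07 (adjusted p = 0.715).

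The genes around the sirtuins in NAD+ metabolism and among their known partners were taken as 6 lists, of which 58 genes were tested. With *Hdac2* KO 4 of 58 were called higher and 10 lower in *Htt*+/+ mice, and 4 higher and 8 lower in *Htt*Q111/+ mice. No fit with extraction date is given for these genes, and date nearly followed the *Hdac2* genotype. The part of date in the changes of these 58 genes was not tested. Over all genes tested 9.06% were called higher and 8.79% lower in *Htt*+/+ mice, and 7.68% and 8.86% in *Htt*Q111/+ mice. The median log2 fold changes of the 58 genes were −0.02 and −0.0078, against −0.0014 and −0.0044 over all genes. In the 2 *Htt* contrasts none of the 58 was called.

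Of 10 tested genes of NAD+ synthesis and salvage, 1 fell in *Htt*+/+ mice, and 1 rose and 2 fell in *Htt*Q111/+ mice. *Nampt*, the rate-limiting enzyme of NAD+ salvage, fell by 0.18 on the log2 scale in *Htt*+/+ (SE 0.051, adjusted p = 0.0111) and by 0.14 in *Htt*Q111/+ mice (SE 0.044, adjusted p = 0.0263). *Nmnat2*, a neuronal enzyme of the last step of NAD+ synthesis that protects axons, rose by 0.12 in *Htt*Q111/+ mice (adjusted p = 0.00969), and *Nmnat3*, its mitochondrial relative, fell by 0.29 (adjusted p = 0.0262). Among 4 tested NAD+ consumers, *Parp1*, which makes poly-ADP-ribose at DNA breaks, fell by 0.16 (adjusted p = 0.00104) and 0.12 (adjusted p = 0.00539). *Sarm1*, an NAD+ hydrolase of axon degeneration, rose by 0.17 in *Htt*+/+ mice (adjusted p = 0.0471).

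Among 13 tested mitochondrial substrates of SIRT3, SIRT4 or SIRT5, 4 were called lower in *Htt*+/+ and 3 in *Htt*Q111/+ mice, and none higher. Of all genes tested 8.79% and 8.86% were called lower, and 9.06% and 7.68% higher. In the average *Hdac2* effect 4 of the 13 were called lower and 1 higher. *Opa1*, a GTPase of inner-membrane fusion, fell by 0.19 (adjusted p = 0.000723) and 0.21 (adjusted p = 3.24e-05). *Sod2*, the manganese superoxide dismutase, fell by 0.15 (adjusted p = 0.000219) and 0.16 (adjusted p = 2.13e-05), and *Sdha*, a subunit of complex II, fell by 0.11 (adjusted p = 0.00557) and 0.11 (adjusted p = 0.00128). *Mlycd*, malonyl-CoA decarboxylase and a substrate of SIRT4, fell by 0.13 in *Htt*+/+ mice (adjusted p = 0.0298). The list's median log2 fold change was −0.02 and −0.0043.

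Of 17 regulators and targets of SIRT1, 2 fell in *Htt*+/+ mice, and 2 rose and 1 fell in *Htt*Q111/+ mice. *Crtc1*, a coactivator of CREB, fell by 0.14 (adjusted p = 0.00169) and 0.20 (adjusted p = 6.32e-06), and *Foxo1*, a forkhead factor, fell by 0.17 in *Htt*+/+ mice (adjusted p = 0.0347). *Nr1h3* and *Nr1h2*, which encode the liver X receptors, rose by 0.28 (adjusted p = 0.0241) and 0.10 (adjusted p = 0.0446) in *Htt*Q111/+ mice. Of 7 glycolysis genes that SIRT6 is known to repress, *Slc2a1*, a glucose transporter, rose by 0.22 (adjusted p = 0.0471) and *Ldha*, lactate dehydrogenase A, by 0.19 (adjusted p = 0.00314) in *Htt*+/+ mice. *Tpi1*, triosephosphate isomerase, fell by 0.17 (adjusted p = 0.000418) there and by 0.14 in *Htt*Q111/+ mice (adjusted p = 0.00113). Of 7 partners of SIRT7 in ribosomal DNA transcription, *Polr1e*, an RNA polymerase I subunit, rose by 0.31 (adjusted p = 0.00362) and 0.20 (adjusted p = 0.0343), and *Ubtf*, the upstream binding factor, fell by 0.18 in *Htt*+/+ mice (adjusted p = 0.0043).

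Over the 35 libraries, each sirtuin was set beside the 14111 genes with a mean log2 CPM of at least 1, and the 3 with the highest Pearson r of log2 CPM were named. The points share the libraries, their depth and the genotype groups, so these values are a description. *Sirt5* was most like *Slc25a12* (r = 0.804) and *Slc25a11* (r = 0.795), carriers of the mitochondrial inner membrane for aspartate/glutamate and for 2-oxoglutarate, and *Hsf4* (r = 0.772), a heat shock factor. All 3 fell in both *Hdac2* contrasts, *Slc25a11* by 0.16 (adjusted p = 0.000251) and 0.19 (adjusted p = 2.77e-06). Of all genes tested 8.79% and 8.86% were called lower there. These 3 were picked by r over the same libraries, group differences included, so a shared fall was favoured in advance. With group means removed the values of r were 0.726, 0.670 and 0.630. *Sirt3* was most like *Drap1* (r = 0.882), a transcriptional corepressor, *B3gat3* (r = 0.880), a glycosaminoglycan enzyme, and the predicted gene *Gm21983* (r = 0.874).

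*Sirt2* was most like *Nrbp2* (r = 0.859), *Bin1* (r = 0.852), a membrane-bending protein, and *Plekhb1* (r = 0.803). *Sirt7* was most like *Fam19a5* (r = 0.823). For *Sirt1*, *Sirt4* and *Sirt6* the highest values were 0.726 (*Socs4*), 0.704 (*Slc2a8*) and 0.722 (*Npdc1*). Among the members themselves, *Sirt2* and *Sirt3* had r = 0.616. *Sirt3* and *Sirt5*, which moved in opposite directions with the knockout, had r = 0.613 once group means were removed, but 6e-05 before. *Sirt1* had a negative r with each of the other 6, from −0.46 (*Sirt6*) to −0.10 (*Sirt5*).

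*Sirt2* varied with the oligodendrocyte markers. Its log2 CPM had r = 0.608 with the mean log2 CPM of 14 oligodendrocyte markers over 35 libraries (permutation test, two-sided, p = 0.0001, adjusted over 7 sirtuins p = 0.0007) and Spearman's rho of 0.610 (permutation p = 0.00023, adjusted p = 0.00161). Without the 2 libraries farthest from the median of the markers r was 0.539, and with group means removed it was 0.569 (permutation p = 0.00032, adjusted p = 0.00224). The permutations shuffled all 35 libraries, regardless of the letter that begins a mouse's ID. Within letters A, V and Z r was 0.911 (n = 8), 0.505 (n = 16) and 0.467 (n = 11). None of the other 6 sirtuins passed the permutation test (adjusted p = 0.21 to 0.644 for Pearson's r). The marker sum overlapped between the groups, with *Hdac2* WT medians of 7610 CPM in *Htt*+/+ and 6948 in *Htt*Q111/+ libraries and *Hdac2* KO medians of 7623 and 7625 CPM, and 0 of 14 markers were called in contrasts 1 to 4.

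Sex and the letter that begins a mouse's ID were also compared. Female and male striata differed in 0 of 7 sirtuins, beside 0.0807% of 17346 genes, and 0 of 7 had a nominal p under 0.05. The letter V was compared with A and Z within each *Htt* genotype. In *Htt*Q111/+ mice the CAG repeat was 131 to 144 units long in the 8 mice with V and 110 to 118 in the 10 with A or Z, so letter and repeat length cannot be told apart there, nor in the difference between the 2 genotypes. In *Htt*+/+ mice the labels give 7 units for every mouse. In *Htt*Q111/+ mice 0 of 7 sirtuins were called, beside 4.82% of 17169 genes. In *Htt*+/+ mice 1 of 7 was called, *Sirt2*, beside 2.19% of 17126 genes. *Sirt2* ranged from 129 to 147.2 CPM in the 8 *Htt*+/+ mice with letter V and from 150.2 to 172.1 CPM in the 9 with A or Z, without overlap, a log2 fold change of −0.17 (SE 0.030, adjusted p = 0.00486). In *Htt*Q111/+ mice it ranged from 146.5 to 165.9 CPM in 8 mice with V and from 135.5 to 178.7 CPM in 10 with A or Z, a log2 fold change of −0.0017 (SE 0.050). The difference between the 2 effects was 0.15 (SE 0.055) and did not pass when adjusted over 17346 genes (p = 0.012 unadjusted, adjusted p = 0.473 in edgeR). With extraction date added, the effect in *Htt*+/+ mice was −0.28 (adjusted p = 0.194).

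Most oligodendrocyte markers were lower with letter V in both *Htt* genotypes, but the median shift in *Htt*Q111/+ mice was small. In *Htt*+/+ mice 13 of 14 were lower with letter V, with a median log2 fold change of −0.18 against 0.0018 over all genes tested. There 1 of 14 was called, beside 2.19% of all genes tested. The marker sum was 6205 to 7700 CPM in the 8 mice with V and 7478 to 10800 CPM in the 9 with A or Z. In *Htt*Q111/+ mice the median log2 fold change was −0.02, against 0.0073 over all genes tested, and 10 of 14 were lower with V. Of the 14, 2 were called lower, beside 4.82% of all genes called in either direction. The median marker sum there was 6914 CPM with V and 7812 CPM with A or Z, against 7506 and 7834 CPM in *Htt*+/+ mice. The *Sirt2* medians were 155.6 and 157.5 CPM in *Htt*Q111/+ mice, and 142.8 and 158.6 CPM in *Htt*+/+ mice. The part of the markers' shift in the *Sirt2* difference was not tested.

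**Figure D5:**
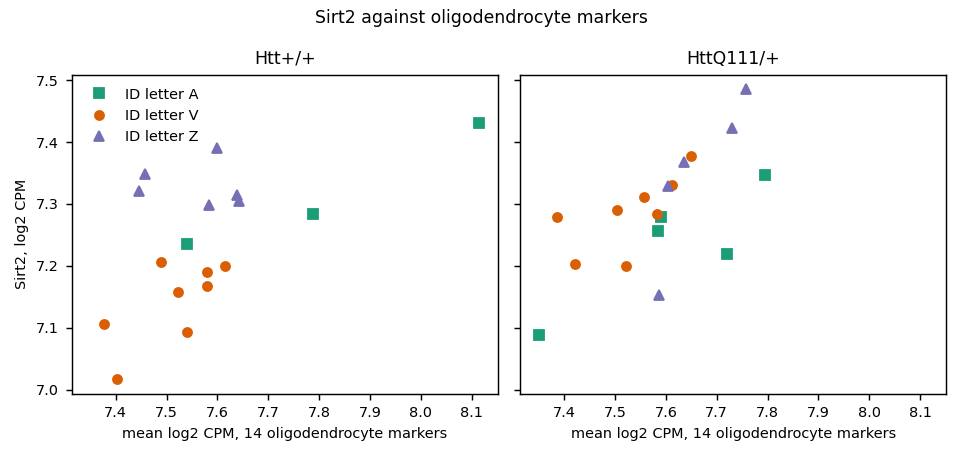
*Sirt2* (log2 CPM) against the mean log2 CPM of 14 oligodendrocyte markers in each *Htt*+/+ (left) and *Htt*Q111/+ (right) library, with symbols for the ID letter. *Sirt2* goes with the markers (r = 0.608 over 35 libraries), and in *Htt*+/+ mice the 8 libraries with letter V lie below the 9 with A or Z.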

How the data were processed

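Striatal RNA of 35 mice was sequenced with 1 library per mouse. The deposited values are raw counts: per the submitters' processing notes and the study's methods, the authors used GSNAP with the GRCm38 genome and bedtools to count uniquely placed reads over each Ensembl gene from end to end. Groups, sexes, extraction dates and ID letters came from the labels. From 39109 entries, 32863 genes were kept after dropping 92 ERCC spike-ins, 2 genes of mitochondrial rRNA and 6152 genes of up to 250 nt. A gene entered a test if 1 of the groups compared had 6 or more counts in all its libraries.

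Counts were scaled by TMM. Each contrast was fitted to all 35 libraries with 9 surrogate variables (sva 3.50.0) in edgeR 4.0.16 (R 4.3.3), and p values of the quasi-likelihood F test were corrected by Benjamini-Hochberg across the genes tested (threshold 0.05). The first surrogate variable followed sex (R² 0.834 to 0.852). The sex test used the groups and sex, and the ID letter tests the libraries of 1 *Htt* genotype with group, sex and letter, without surrogate variables. Log2 CPM used a pseudocount of 0.5, and permutation tests 100000 draws. The script was tested on simulated data.

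Alternatives replaced the surrogate variables, the scaling, the test (DESeq2 1.42.0, limma 3.58.1), the filter and the libraries. Fits with extraction date in place of surrogate variables set *Hdac2* KO against WT only through the single *Hdac2* KO libraries of 25 and 27 May. Contrast 1 is *Hdac2* KO minus WT in *Htt*+/+ and contrast 2 in *Htt*Q111/+ mice. Contrasts 3 and 4 are *Htt*Q111/+ minus *Htt*+/+ in *Hdac2* WT and KO mice, and contrast 5 is *Htt*Q111/+ *Hdac2* KO minus *Htt*+/+ *Hdac2* WT. Named were the 7 sirtuins, at most 4 called genes of each pathway list, genes overlapping or within 5 kb of a sirtuin that bear on it, and up to 3 genes most like each sirtuin. Members and lists were chosen with earlier results of these data known. Replicates are separate mice.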

Additional observations from a re-analysis of the deposited data

Results flagged for a closer look

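Of 21 pairs of a sirtuin and a group of 7 to 9 libraries, 3 had a library far from the others by Dixon's test at the 95% level, which flags about 1 in 20 groups by chance. *Sirt3* was 39.4 CPM in *Htt*Q111/+ *Hdac2* WT replicate 7, while the other 6 libraries lay between 32.7 and 35.2 CPM. *Sirt5* was 7.79 CPM in *Htt*+/+ *Hdac2* WT replicate 8, and the other 7 lay between 8.61 and 9.27 CPM. *Sirt7* was 31.0 CPM in *Htt*+/+ *Hdac2* WT replicate 9, and the other 7 lay between 27.0 and 28.7 CPM. The *Sirt3* call in contrast 2 and the *Sirt5* call in contrast 1 held with each of the 35 libraries left out in turn.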

How the results depend on the processing

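The number of sirtuins called in contrast 1 was 1. It was 2 without surrogate variables, with sex in their place or with the replicate block in their place, 3 with only the libraries compared and 0 in males only. In contrast 2 it was 2, and 1 without surrogate variables, with sex, with ID letter and sex or with the replicate block in their place, with no filter on low counts, with only the libraries compared and in males only, and 0 with extraction date in the model. With date it was also 1 in place of 2 in contrast 5 and in the average *Hdac2* effect, and with date added 0 in place of 1 for ID letter V in *Htt*+/+ mice. Without single libraries the count was 1 to 2 in contrasts 1 and 2 and 2 to 4 in the average *Hdac2* effect. The other counts were within 1.5 times of the reported ones in every alternative, but did not always hold the same genes. In contrast 5 *Sirt2* was called and *Sirt5* was not in 5 of 15 alternatives (no surrogate variables, sex, ID letter and sex, replicate block, males only), and in males only the same held in the average *Hdac2* effect (*Sirt5* −0.15, adjusted p = 0.056). Replicate numbers did not pair the mice: over 45 pairs of the same number in other groups the median correlation of deviations was 0.0386. The 0.12 of *Sirt1* in the average *Hdac2* effect (adjusted p = 0.0808) turned to −0.014 without surrogate variables, −0.016 with sex, −0.056 with date and −0.0011 with the replicate block in their place, and to −0.051 in males only. For *Sirt2*, leaving out *Htt*Q111/+ *Hdac2* KO replicate 9 gave a call in contrast 1 (adjusted p = 0.0491). In contrast 5 a call came without any of 7 libraries (adjusted p = 0.018 to 0.0466), which were *Htt*Q111/+ *Hdac2* WT replicate 5, *Htt*+/+ *Hdac2* WT replicate 2, *Htt*Q111/+ *Hdac2* KO replicates 1, 3, 7 and 9 and *Htt*+/+ *Hdac2* KO replicate 1. In the average *Hdac2* effect *Sirt2* was called without *Htt*Q111/+ *Hdac2* WT replicate 5, *Htt*+/+ *Hdac2* WT replicate 2 or *Htt*Q111/+ *Hdac2* KO replicate 3, 7 or 9 (adjusted p = 0.0201 to 0.0378), and *Sirt1* without *Htt*+/+ *Hdac2* WT replicate 1, *Htt*Q111/+ *Hdac2* KO replicate 7 or *Htt*+/+ *Hdac2* KO replicate 8 (0.0301 to 0.0467). *Sirt7* was called in contrast 5 without *Htt*Q111/+ *Hdac2* KO replicate 6 (−0.14, adjusted p = 0.0325). The *Sirt5* call was lost in males only in contrast 1 (−0.21, adjusted p = 0.125). The cause of these changes was not tested. *Sirt5*, at 324 to 616 counts per library, was the member counted least deeply.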
